A study of Citrus maxima with 6 samples.

Results

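MADS-box, SPL (squamosa promoter binding protein-like) and YABBY genes encode plant transcription factors. They were taken from the annotated gene table of pomelo (Citrus maxima) by gene name: every gene whose name contained AGAMOUS, MADS, squamosa promoter, SBP or YABBY, in any case. The rule found 162 of 30123 genes. Of these, 134 were named as one of these transcription factors, 115 as MADS-box, 14 as SPL and 5 as YABBY genes. The name alone decided this, and the AGL26 hit Cg7g023060, counted as MADS-box, may not encode a MADS-box protein. The other 28 matched only through the letters SBP inside another protein name, and are described apart at the end. Ripe pulp with red flesh came from the cultivar Citrus maxima Merr. var. Tubtim Siam. It was set against ripe pulp with white flesh, from Citrus maxima (Burm.) Osbeck. There were 3 biological repeats per cultivar, each made from mixed sarcocarp of several fruits, and neither cultivar received a treatment. Poly-A RNA was sequenced, and levels are given as FPKM, fragment counts scaled for transcript length and for sequencing depth. Because each cultivar was a single variety with its own genetic background, flesh colour and every other difference between the varieties cannot be told apart.

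MADS-box proteins bind DNA as dimers and tetramers. In the flower they act by a combinatorial code, in which SEPALLATA (SEP) proteins join APETALA1 (AP1), APETALA3 (AP3), PISTILLATA (PI) and AGAMOUS (AG) proteins into complexes that specify each organ. After pollination some of the same genes act in the fruit: SHATTERPROOF (SHP) and FRUITFULL (FUL) pattern the Arabidopsis seed pod, and their relatives, with a SEP protein, take part in tomato ripening. SPL proteins, many of them held down by the microRNA miR156, time the passage from the juvenile to the adult and flowering phases in Arabidopsis. The tomato SPL gene Colorless non-ripening has been linked to ripening. YABBY proteins mark the lower side of leaves and floral organs in Arabidopsis. The edible sarcocarp of pomelo consists of juice sacs that grow into the carpel chambers, so it is a carpel-derived tissue.

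The 6 libraries summed to between 812335 and 835575 FPKM and had between 15920 and 16250 genes above 0. Replicates of a cultivar correlated at r between 0.958 and 0.964 across genes, and libraries of different cultivars at r between 0.833 and 0.855. Ripe sarcocarp genes of the carotenoid and abscisic acid pathways were present, with 15 of 18 above 0 and a summed level of 237.8 to 273.2 FPKM in red against 153.1 to 172.9 FPKM in white. A phytoene synthase hit, Cg6g016720, carried that difference (means of 161 FPKM in red and 29.4 FPKM in white) and was the 1 gene of the list called higher, while 2 were called lower. Seed storage genes summed to 10.3 to 33.2 FPKM in red, highest in replicate 3, and to 0.23 to 0.33 FPKM in white. Of these 10 genes, 8 were above 0 in red and 3 in white, and 2 were at 0 throughout. Phloem genes summed to 148.2 to 198.9 FPKM in red and 440.0 to 481.5 FPKM in white, with 6 of 11 above 0 in red, 4 in white and 5 at 0 throughout. That difference lay in a single PP2A1 hit, Cg6g008370 (means of 157 FPKM in red and 441 FPKM in white), the only call of the list, and the 6 genes above 0 had the higher mean in red in 3 cases and in white in 3. Xylem wall genes summed to 16.2 to 25.0 FPKM in red and 8.71 to 20.5 FPKM in white, with 5 of 18 above 0 in red, 12 in white and 6 at 0 throughout. An XCP2 hit, Cg8g000170 (means of 20.0 FPKM in red and 10.2 FPKM in white, not called), carried those sums. The other 11 genes above 0 all had the lower mean in red, among them the 1 call of the list, a CESA7 hit, Cg4g023980 (means of 0.03 FPKM in red and 1.18 FPKM in white). All 14 green tissue genes were above 0, and their sums of 578.4 to 640.2 FPKM in red and 579.8 to 728.2 FPKM in white overlapped. Those sums hid calls in both directions, 2 higher and 3 lower in red among 11 genes tested. For the LHCB1 hit Cg2g044410, called higher, the white mean was 34.9 FPKM and the red mean 153 FPKM. For Cg2g044400, an LHCB1 hit called lower, the white mean was 463 FPKM and the red mean 250 FPKM. The part of these tissue differences in the results that follow was not tested, and in bulk tissue fewer cells of a type and less RNA per cell cannot be told apart.

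Most of the transcription factor genes were listed at 0 in ripe pulp. A gene was counted as expressed when either cultivar averaged at least 1 FPKM, which 36 of the 134 genes reached (26.9%), against 14158 of all 30123 genes (47.0%). The low share came from the MADS-box family, where 22 of 115 genes were expressed (19.1%) and 79 were listed at 0 in all 6 libraries. SPL genes showed the opposite, with 11 of 14 expressed and none at 0 throughout, and 3 of 5 YABBY genes were expressed. Another 18 genes, 14 MADS-box, 3 SPL and 1 YABBY, were above 0 somewhere but under the filter, and in a fit without the filter 0 of these 18 were called (smallest adjusted p = 0.012, limma with Benjamini-Hochberg). A listed 0 is not proof of absence, since 10 of the 80 genes at 0 throughout had an authors' mean normalized count above 0, and 2 of them had at least 1. Those 2 were Cg8g001950, a hit to AGL16 (9.36 counts), and Cg5g025360, a hit to SEEDSTICK (3.99 counts).

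**Figure D1:**
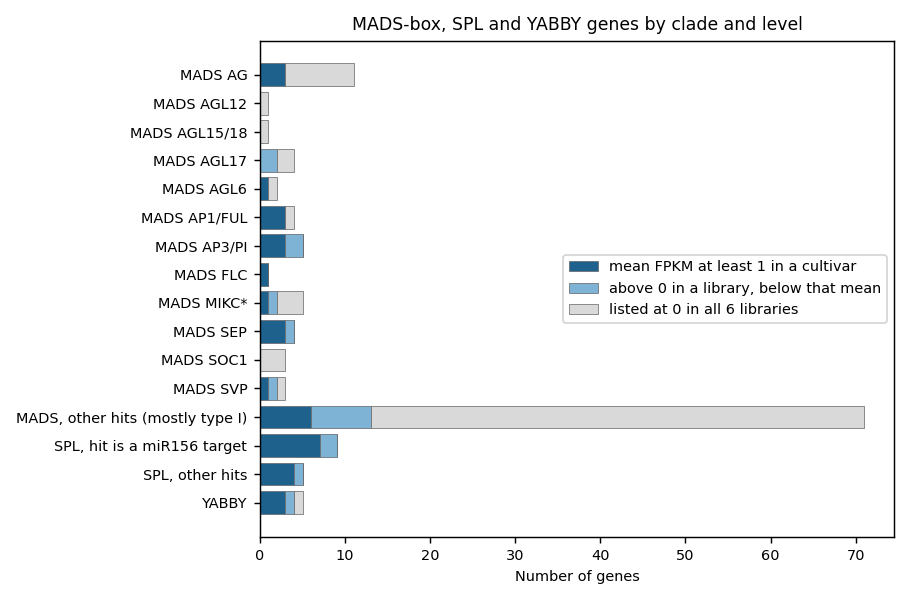
Number of MADS-box genes by lineage, SPL genes by whether their Arabidopsis hit is a known miR156 target, and YABBY genes, split into expressed, above 0 but under the filter, and listed at 0 in all 6 libraries; the horizontal axis counts genes. The 71 MADS-box hits outside the named lineages hold 58 of the 79 zeros, whereas no SPL gene was at 0 throughout.

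The zeros were spread unevenly over the lineages. In the lineages known from flower and fruit development, 3 of 4 SEP hits, 3 of 4 AP1/FUL hits, 3 of 5 AP3/PI hits, 3 of 11 AG-lineage hits and 1 of 2 AGL6 hits were expressed. All 3 hits to the SOC1 lineage (SOC1, AGL19 and AGL42) were listed at 0. SOC1 is an Arabidopsis flowering activator. The single hits to AGL12 and to the AGL15/18 lineage were also listed at 0. No gene of the table hit the B-sister lineage, which acts in the seed coat of Arabidopsis. The 71 other MADS-box hits, most of them to type I genes, which in Arabidopsis work largely in the female gametophyte and endosperm, included 58 at 0 and 6 expressed. As many as 40 of them shared a single hit, AGL61 (DIANA), needed in Arabidopsis for central cell development, and 37 of those 40 were listed at 0. Near-identical copies can share reads, so the level of any 1 AGL61 hit is uncertain.

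Around the filter, the expressed genes with the lowest levels were a SEEDSTICK hit, Cg5g025130 (largest cultivar mean 1.04 FPKM), an SPL9 hit, Cg5g043950 (1.32 FPKM), and an AP3 hit, Cg1g005070 (1.54 FPKM). The genes just under it were the SPL8 hit Cg5g043960 (0.86 FPKM), the FILAMENTOUS FLOWER hit Cg5g008650 (0.78 FPKM) and the AGL16 hit Cg3g013660 (0.463 FPKM). Cg5g008650 had 0, 0 and 0.22 FPKM in red, against 1.12, 0.69 and 0.53 FPKM in white. Cg5g043960 had 0.23, 0.28 and 0.55 FPKM in red and 0.26, 1.14 and 1.18 FPKM in white, which overlapped. For Cg3g013660 the measures disagreed, since it had 0, 1.12 and 0.27 FPKM in red and 0 in every white library, yet an authors' mean normalized count of 106.8. Of the 36 expressed genes, 6 passed the filter through 1 cultivar only, so their differences were partly set by the filter. Those that passed through red were the SPL9 hit Cg5g043950 and the YAB5 hit Cg4g007130, and those that passed through white were the AP3 hits Cg1g005070 and Cg3g023510, the SEEDSTICK hit Cg5g025130 and the SPL13B hit Cg7g016770. Of these 6, Cg5g043950 and Cg1g005070 were called.

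Where MADS-box genes were expressed, a few of them carried nearly all of the signal. Summed over the family, MADS-box genes reached 3051, 3124 and 3044 FPKM in red replicates 1, 2 and 3, against 2774, 2669 and 2412 FPKM in white replicates 1, 2 and 3, a ratio of means of 1.17. The libraries did not overlap, and all red libraries were higher. A single SEP3 hit, Cg7g016780, supplied 54.8 to 58.1% of that sum in red and 51.7 to 57.6% in white, and the 5 highest genes together 91.0 to 91.8% in red and 85.1 to 87.8% in white. YABBY genes summed to 140.2, 135.2 and 151.6 FPKM in red, against 100.4, 98.0 and 100.9 FPKM in white (ratio 1.43), again without overlap. SPL genes were the family with the lower sum in red, at 229.5, 218.2 and 253.6 FPKM, against 261.4, 260.9 and 264.5 FPKM in white (ratio 0.891). These sums are descriptions, no test was made of them, and the most abundant genes weigh most in them. Among those, the SEP3 hit Cg7g016780 and the SPL hits Cg5g039120, Cg9g000340 and Cg3g025940 were not called. Of the called SPL genes, 3 were higher and 2 lower in red.

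**Figure D2:**
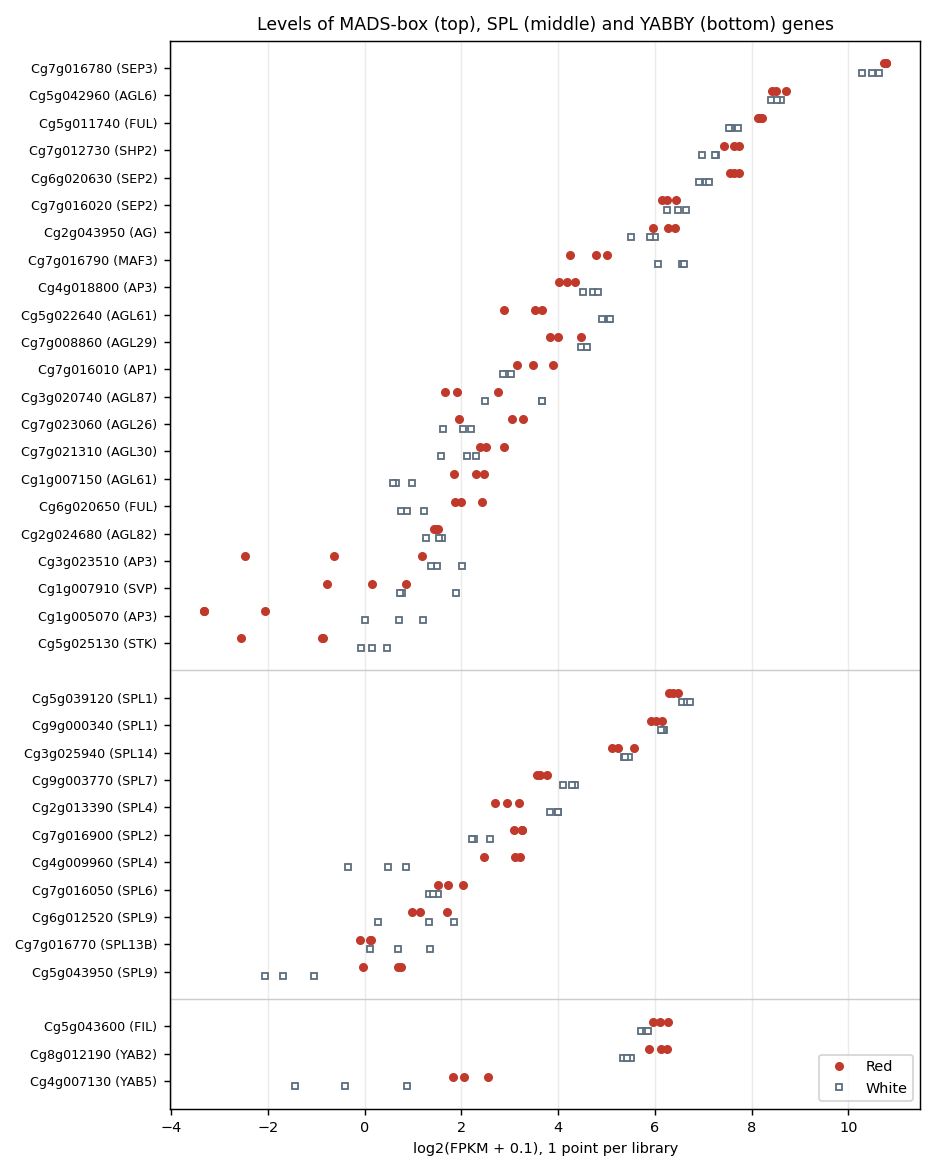
Level of each expressed MADS-box, SPL and YABBY gene in each of the 6 libraries, as log2(FPKM + 0.1) on the horizontal axis, with filled red circles for red libraries and open squares for white libraries. The SEP3 hit Cg7g016780 stands alone, from 1248 to 1768 FPKM, and most of the 36 genes lie under 100 FPKM.

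Across the families the differences between cultivars were mostly of less than 4-fold and ran in both directions. Of the 36 expressed genes, 13 were called at an adjusted p of at most 0.01 (36.1%), 8 higher and 5 lower in red, where 27.5% of all expressed genes were called, 13.4% higher and 14.1% lower (limma on log2(FPKM + 0.1), Benjamini-Hochberg over all 14158 genes). When the fold change also had to reach 2 in size on the log2 scale, 3 passed, a share of 8.33% against 6.76% of all expressed genes. Of these 3, 2 were higher and 1 was lower, where 3.11% of all expressed genes were higher and 3.65% lower. Red and white libraries did not overlap for 25 of the 36 genes (69.4%), against 57.7% of all expressed genes. Red was the higher cultivar in 15 of these 25 genes and the lower in 10, where 29.4% of all expressed genes were higher and 28.3% lower without overlap. The median log2 fold change was 0.08 over the 36 genes and 0.02 over all expressed genes, and the median size without sign was 0.60 against 0.40. The family counts were 4 higher and 3 lower of 22 MADS-box genes, 3 higher and 2 lower of 11 SPL genes, and 1 higher and none lower of 3 YABBY genes. The counts fell when single libraries were left out. Leaving out red replicate 1 or white replicate 2 gave 3 higher calls in place of 8. Leaving out red replicate 2 or white replicate 3 gave 4. Lower calls numbered 3 in place of 5 when white replicate 1 was left out. Each such fit had fewer libraries and so less power, and its share of all expressed genes called is not given. Whether these calls rest on particular libraries was therefore not tested. Of the 13 calls, 5 stood under all 15 alternative settings. Past the fold threshold as well, 1 higher call was left in place of 2 when any library but white replicate 1 was left out. Without white replicate 1, the count of 2 held the YAB5 hit Cg4g007130 (adjusted p = 0.00309, limma with Benjamini-Hochberg) and not the SPL9 hit Cg5g043950. That SPL9 hit had an adjusted p of 0.0108 to 0.0454 in the fits without single libraries (limma with Benjamini-Hochberg). The 1 lower call was lost when red replicate 1 or either of white replicates 1 and 3 was left out.

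**Figure D3:**
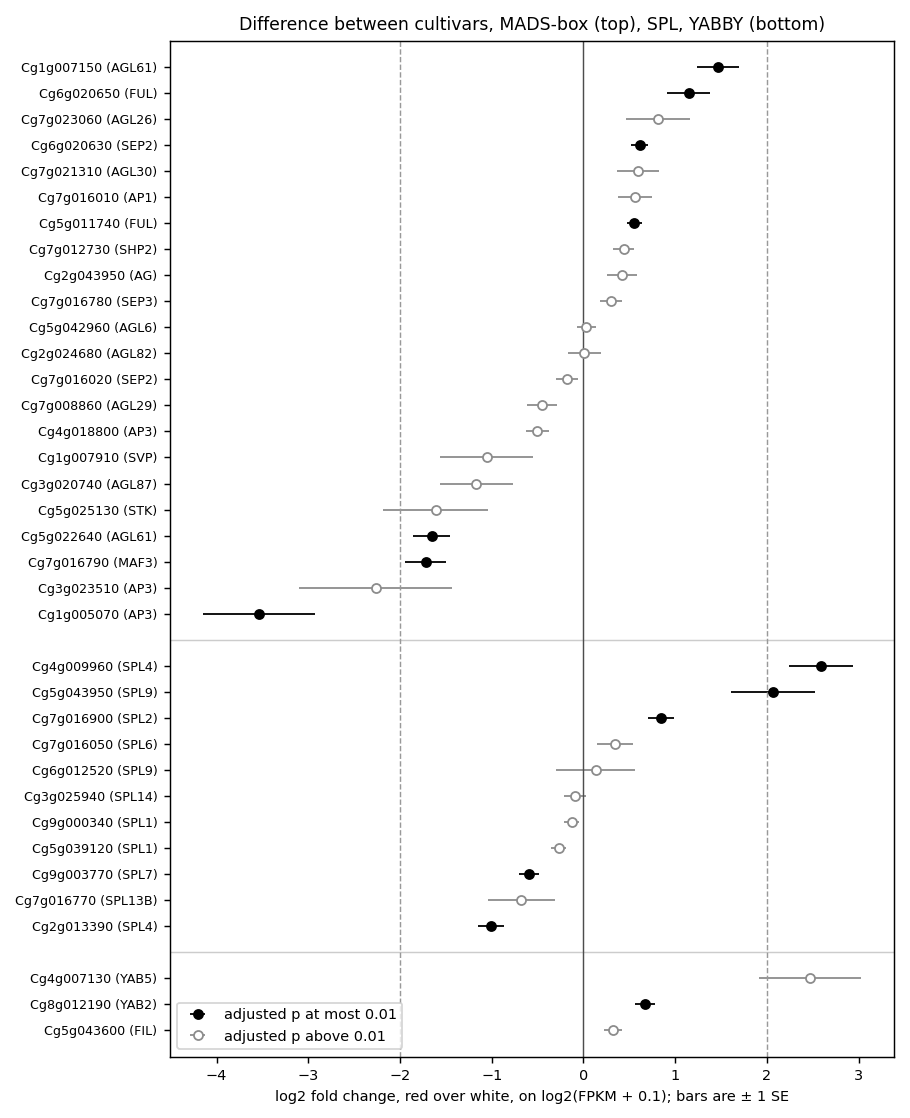
Log2 fold change, red over white, of the 36 expressed MADS-box, SPL and YABBY genes from the limma fit, with bars of 1 standard error and filled marks for genes called at the adjusted p of at most 0.01. The range runs from -3.54 for the AP3 hit Cg1g005070 to 2.59 for the SPL4 hit Cg4g009960.

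The SEP hits, cofactors that join other MADS-box proteins in Arabidopsis flowers, held the highest level of all. Cg7g016780 (SEP3) had 1758, 1711 and 1768 FPKM in red, against 1597, 1436 and 1248 FPKM in white, and was the 39th most abundant of all 30123 genes by mean FPKM. Its red libraries were all higher, but the difference missed the threshold, with a log2 fold change of 0.30 (SE 0.12, adjusted p = 0.0748, limma with Benjamini-Hochberg). One of the SEP2 hits, Cg6g020630, had 186.7, 214.1 and 200.1 FPKM in red, against 133.6, 138.9 and 121.0 FPKM in white. It was higher in red without overlap, at a log2 fold change of 0.61 (SE 0.09, adjusted p = 0.00162, limma with Benjamini-Hochberg), and stayed called under all 15 alternatives. Its sister hit to SEP2, Cg7g016020, had 76.0, 71.3 and 86.4 FPKM in red and 99.7, 88.8 and 76.5 FPKM in white, which overlapped (log2 fold change -0.18, SE 0.12, adjusted p = 0.261, limma with Benjamini-Hochberg). The ratio of Cg6g020630 to Cg7g016020 was therefore 2.32 to 3.00 in red libraries and 1.34 to 1.58 in white libraries. The remaining SEP hit, Cg5g011730 (SEP1), was above 0 in 1 library only, at 0.07 FPKM.

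FUL hits were higher in red pulp. In Arabidopsis FUL specifies the valves of the seed pod. Cg5g011740, the more abundant FUL hit, had 296.7, 284.2 and 281.7 FPKM in red, against 211.3, 190.6 and 186.3 FPKM in white. Every red library was above every white one, with a log2 fold change of 0.55 (SE 0.08, adjusted p = 0.00150, limma with Benjamini-Hochberg), although without red replicate 1 the adjusted p became 0.0104. Cg6g020650, the other FUL hit, was far less abundant, at 3.52, 3.89 and 5.29 FPKM in red, against 2.25, 1.72 and 1.58 FPKM in white. Here too the libraries did not overlap, and the log2 fold change was 1.15 (SE 0.23, adjusted p = 0.00675, limma with Benjamini-Hochberg). That call was lost without any of red replicates 1, 2 and 3 (adjusted p 0.0158, 0.0197 and 0.0193) or of white replicates 2 and 3 (0.0253 and 0.0234). The AP1 hit Cg7g016010, whose Arabidopsis match sets sepal and petal identity, had 8.82, 11 and 14.7 FPKM in red and 7.56, 7.19 and 8.06 FPKM in white. Its libraries did not overlap either, and its log2 fold change of 0.56 did not pass (SE 0.19, adjusted p = 0.0457, limma with Benjamini-Hochberg).

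AGL6, a close relative of SEP that acts in flower development, gave the second highest MADS-box level and no called difference. Its hit Cg5g042960 had 361.6, 419.8 and 344.9 FPKM in red and 337.8, 391.6 and 371.4 FPKM in white. The libraries of the cultivars were interleaved, with a log2 fold change of 0.03 (SE 0.10, adjusted p = 0.830, limma with Benjamini-Hochberg). Its sign changed under 3 alternatives.

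In the AG lineage, which builds carpels and ovules, no difference was called. The SHP2 hit Cg7g012730 had 171.9, 215.0 and 198.6 FPKM in red, against 154.7, 152.1 and 125.7 FPKM in white. Red libraries were all higher, at a log2 fold change of 0.44 that missed the threshold (SE 0.12, adjusted p = 0.0213, limma with Benjamini-Hochberg). The AG hit Cg2g043950 had 76.7, 85.5 and 62.3 FPKM in red and 45.2, 63.7 and 59.2 FPKM in white, with overlap between red replicate 3 and white replicate 2 (log2 fold change 0.42, SE 0.16, adjusted p = 0.0729, limma with Benjamini-Hochberg). SEEDSTICK gives ovules their identity in Arabidopsis, and its expressed hit Cg5g025130 had 0.07, 0.45 and 0.44 FPKM in red, against 1.27, 1.01 and 0.85 FPKM in white. All white libraries were higher, and the log2 fold change of -1.61 was not called (SE 0.57, adjusted p = 0.0535, limma with Benjamini-Hochberg). It passed the filter through white only. Seed storage genes stood the other way round, at 10.3 to 33.2 FPKM in red and 0.23 to 0.33 FPKM in white, and their part in the SEEDSTICK values was not tested.

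Of the 3 expressed AP3 hits, whose Arabidopsis match gives petals and stamens their identity with PI, 1 was called lower in red pulp and the others were not called. Cg4g018800, the most abundant, had 18.2, 20.1 and 16.0 FPKM in red, against 26.1, 22.7 and 28.3 FPKM in white. The libraries did not overlap, but a log2 fold change of -0.50 was not called (SE 0.12, adjusted p = 0.0149, limma with Benjamini-Hochberg). A second hit, Cg1g005070, was listed at 0, 0.14 and 0 FPKM in red, against 2.19, 0.90 and 1.54 FPKM in white. It was the 1 gene lower in red past both thresholds, at a log2 fold change of -3.54 (SE 0.61, adjusted p = 0.00347, limma with Benjamini-Hochberg), a size that depends on the pseudocount of 0.1 because red was near 0. It entered the test only through white, where it was high, and had an adjusted p of 0.00201 in the fit without a filter (limma with Benjamini-Hochberg). That fit also takes in genes averaging under 1 FPKM in both cultivars, which alter its variance trend and adjustment. Its value is therefore no independent support. The adjusted p became 0.0118 without red replicate 1, 0.0158 without white replicate 1 and 0.0151 without white replicate 3. Cg3g023510 had 2.18, 0.08 and 0.54 FPKM in red and 2.72, 3.91 and 2.49 FPKM in white. Red replicate 1 lay close to the white libraries and the other two red libraries well below them (log2 fold change -2.27, SE 0.84, adjusted p = 0.0624, limma with Benjamini-Hochberg). Added up, the 3 AP3 hits gave 20.4, 20.4 and 16.6 FPKM in red, against 31.0, 27.5 and 32.4 FPKM in white. Both PI hits, Cg3g017100 and Cg3g017080, were under the filter in both cultivars, with no library above 0.42 FPKM.

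The hit to MAF3, a member of the FLOWERING LOCUS C lineage that delays flowering in Arabidopsis, was lower in red pulp. Cg7g016790 had 32.2, 27.6 and 19.0 FPKM in red, against 66.9, 94.3 and 97.0 FPKM in white. No red library reached the lowest white one, at a log2 fold change of -1.72 (SE 0.22, adjusted p = 0.00106, limma with Benjamini-Hochberg) that was called under all 15 alternatives. Its identifier neighbours that of the SEP3 hit, which was not lower in red. The ratio of the SEP3 hit Cg7g016780 to the MAF3 hit Cg7g016790 was 54.5 to 93.1 in red libraries and 12.9 to 23.9 in white libraries. The expressed SVP hit Cg1g007910, related in Arabidopsis to another flowering repressor, had 1.01, 1.70 and 0.48 FPKM in red and 3.62, 1.60 and 1.55 FPKM in white. Those libraries overlapped, and the log2 fold change of -1.06 was not called (SE 0.51, adjusted p = 0.129, limma with Benjamini-Hochberg).

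Among the type I hits, both expressed AGL61 hits differed between cultivars, in opposite directions. Cg5g022640 had 7.25, 12.7 and 11.3 FPKM in red, against 30.0, 33.0 and 33.5 FPKM in white. Its white libraries were all higher, at a log2 fold change of -1.65 (SE 0.20, adjusted p = 0.000846, limma with Benjamini-Hochberg), called under all 15 alternatives. Cg1g007150 had 4.82, 5.41 and 3.48 FPKM in red, against 1.86, 1.47 and 1.39 FPKM in white. This copy was higher in every red library, at a log2 fold change of 1.47 (SE 0.23, adjusted p = 0.00242, limma with Benjamini-Hochberg). Its adjusted p became 0.0143 without red replicate 1, 0.0110 without red replicate 2 and 0.0112 without white replicate 2. The ratio of Cg1g007150 to Cg5g022640 was 0.308 to 0.665 in red libraries and 0.0416 to 0.0621 in white libraries. The hits to AGL87 (Cg3g020740) and AGL29 (Cg7g008860) had log2 fold changes of -1.17 and -0.45 and were not called (adjusted p 0.0495 and 0.0593, limma with Benjamini-Hochberg).

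The SPL genes were split by whether their Arabidopsis hit is a known miR156 target. Of the 7 expressed hits to such targets, 3 were called higher and 1 lower in red, and of the 4 other expressed SPL hits, 1 was called lower (27.5% of all expressed genes were called, 13.4% higher and 14.1% lower). These groups are small, and the difference between them was not tested. The largest difference was in Cg4g009960, a hit to SPL4, which promotes flowering in Arabidopsis. It had 5.39, 8.51 and 9.10 FPKM in red, against 1.3, 1.71 and 0.69 FPKM in white. No white library came near a red one, and the log2 fold change was 2.59 (SE 0.35, adjusted p = 0.00132, limma with Benjamini-Hochberg). The adjusted p stayed under the threshold in all 15 alternatives, and the log2 fold change lay between 1.95 and 2.85 in them. The second SPL4 hit, Cg2g013390, had 8.98, 7.57 and 6.34 FPKM in red, against 15.9, 14.2 and 15.8 FPKM in white. It ran the opposite way without overlap, at a log2 fold change of -1.01 (SE 0.15, adjusted p = 0.00169, limma with Benjamini-Hochberg), and was called under all 15 alternatives.

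The balance between the SPL4 copies therefore differed between the cultivars. The ratio of Cg4g009960 to Cg2g013390 was 0.6, 1.12 and 1.44 in red replicates 1, 2 and 3, against 0.0817, 0.120 and 0.0437 in white replicates 1, 2 and 3. In white pulp Cg2g013390 was the more abundant in every library, whereas in red pulp the order differed among libraries. Both copies are read here from FPKM that were assigned to genes by RSEM, which shares out reads that fit more than 1 gene.

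**Figure D4:**
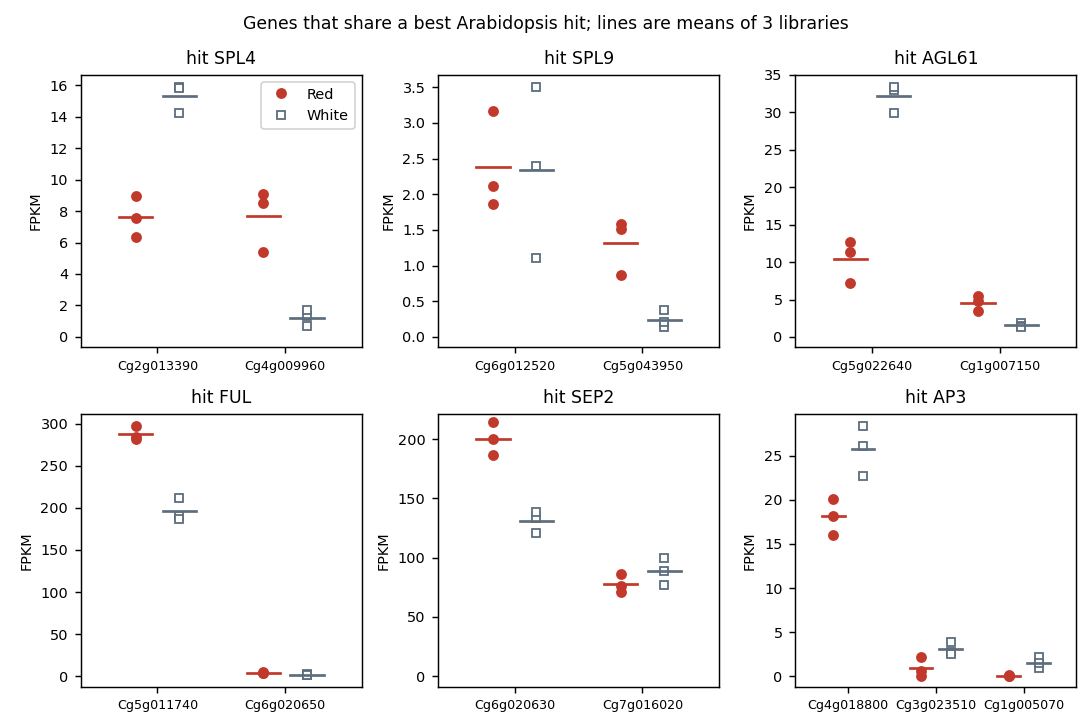
FPKM in each red library (circles) and white library (squares) of expressed genes that share a best Arabidopsis hit, with a panel for each hit, its own linear axis in FPKM and lines at the means of 3 libraries. For SPL4 and AGL61 the copies differ between cultivars in opposite directions, and the ratio of Cg4g009960 to Cg2g013390 is at least 0.6 in red and at most 0.120 in white.

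The remaining SPL calls were smaller or less steady. Cg7g016900, a hit to SPL2, which acts in Arabidopsis shoots and flowers, had 9.48, 8.34 and 9.41 FPKM in red, against 5.91, 4.67 and 4.53 FPKM in white. It was higher in red without overlap (log2 fold change 0.84, SE 0.15, adjusted p = 0.00355, limma with Benjamini-Hochberg). The call was lost without red replicate 1 or 3 (adjusted p 0.0191 and 0.0120) or white replicate 2 or 3 (0.0161 and 0.0139). SPL9 times phase change and restrains anthocyanin formation in Arabidopsis, and its hit Cg5g043950 had 1.58, 1.51 and 0.87 FPKM in red, against 0.14, 0.21 and 0.38 FPKM in white. All red libraries were higher and the log2 fold change was 2.07 (SE 0.46, adjusted p = 0.00983, limma with Benjamini-Hochberg). It entered the test only through red, where it was high, and had an adjusted p of 0.00712 in the fit without a filter (limma with Benjamini-Hochberg). Because that fit also takes in genes near 0, its value is no independent support. Leaving out red replicates 1, 2 and 3 gave adjusted p of 0.0454, 0.0388 and 0.0129 and leaving out white replicates 1, 2 and 3 gave 0.0228, 0.0263 and 0.0108. The other SPL9 hit, Cg6g012520, had 2.12, 3.17 and 1.86 FPKM in red and 3.51, 1.10 and 2.40 FPKM in white, and its red libraries lay within the white range (log2 fold change 0.13, SE 0.43, adjusted p = 0.822, limma with Benjamini-Hochberg).

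SPL hits outside the miR156 targets included the most abundant genes of the family, and all 4 expressed ones had negative fold changes. The SPL1 hits, whose Arabidopsis match is a large SPL protein, included Cg5g039120 with 82.7, 77.8 and 88.5 FPKM in red, against 94.0, 101.1 and 105.6 FPKM in white. Its white libraries were all higher, but a log2 fold change of -0.27 was not called (SE 0.08, adjusted p = 0.0319, limma with Benjamini-Hochberg). Cg9g000340, also a hit to SPL1, had 65.0, 60.7 and 70.9 FPKM in red and 72.7, 72.2 and 69.6 FPKM in white, and the SPL14 hit Cg3g025940 had 37.6, 34.5 and 47.1 FPKM in red and 43.8, 40.8 and 41.8 FPKM in white. Both overlapped and neither was called (adjusted p 0.231 and 0.552, limma with Benjamini-Hochberg). The exception was Cg9g003770, a hit to SPL7, the regulator of copper uptake in Arabidopsis, with 12.2, 11.8 and 13.5 FPKM in red, against 20.2, 19.4 and 17 FPKM in white. It was lower in red without overlap, at a log2 fold change of -0.59 (SE 0.11, adjusted p = 0.00440, limma with Benjamini-Hochberg). Without red replicate 1 or 2 or white replicate 1 or 2 the adjusted p became 0.0215, 0.0172, 0.0169 and 0.0200.

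All 3 expressed YABBY genes had higher levels in every red library than in any white one, where 29.4% of all expressed genes did so, and 1 of them was called. One of the 3, the YAB5 hit, passed the filter through red only, and a further YABBY gene under the filter, Cg5g008650, ran the opposite way, with means of 0.0733 FPKM in red and 0.78 FPKM in white and no overlap. Cg8g012190, a hit to YAB2, which helps set lateral organ growth in Arabidopsis, had 58.7, 69.8 and 76.5 FPKM in red, against 45.2, 40.4 and 42.6 FPKM in white. Its log2 fold change was 0.67 (SE 0.11, adjusted p = 0.00295, limma with Benjamini-Hochberg), and the adjusted p became 0.0127 without red replicate 2, 0.0140 without white replicate 2 and 0.0122 without white replicate 3. The FILAMENTOUS FLOWER hit Cg5g043600, whose match marks the lower side of Arabidopsis organs, had 77.4, 61.9 and 69.1 FPKM in red, against 52.4, 56.2 and 57.6 FPKM in white. Its smaller difference was not called (log2 fold change 0.32, SE 0.10, adjusted p = 0.0340, limma with Benjamini-Hochberg). Cg4g007130, a hit to YAB5, had 4.06, 3.46 and 5.73 FPKM in red, against 1.73, 0.65 and 0.27 FPKM in white. The fold was the largest of the family, at a log2 fold change of 2.47 (SE 0.56), and the adjusted p of 0.0107 lay just outside the threshold (limma with Benjamini-Hochberg). Leaving out single libraries gave adjusted p of 0.00309 to 0.0365 (limma with Benjamini-Hochberg), the lowest without white replicate 1, the highest white library. Of the 15 alternatives, 3 called this gene. The CRABS CLAW hit Cg7g016070, whose match acts in Arabidopsis carpels and nectaries, was listed at 0 in every library.

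Genes of the surrounding network were counted from 4 lists drawn by Arabidopsis hit: AP2-type and flowering time genes, organ polarity genes, co-repressors, and carpel and fruit patterning genes. Of 39 genes in these lists 23 were expressed, and 8 were called higher (34.8%) and 3 lower (13.0%) in red, where 13.4% of all expressed genes were higher and 14.1% lower. Co-repressors that work with MADS-box and YABBY proteins in Arabidopsis gave 3 higher and none lower of 8 expressed, against the same 13.4% and 14.1%. The LEUNIG hit Cg4g008090 had 18.9, 22.8 and 16.3 FPKM in red, against 7.23, 10.6 and 8.45 FPKM in white (log2 fold change 1.14, SE 0.18, adjusted p = 0.00243, limma with Benjamini-Hochberg). It did not overlap between cultivars, and its adjusted p became 0.0123 without red replicate 1 and 0.0108 without white replicate 3. Organ polarity genes gave 4 higher and 1 lower of 9 expressed, where 13.4% and 14.1% of all expressed genes were called in those directions. Genes for the upper side of the leaf in Arabidopsis were among the higher ones, as with the PHABULOSA hit Cg2g039290 at 13.7, 14.3 and 16.1 FPKM in red, against 6.31, 6.36 and 6.19 FPKM in white (log2 fold change 1.21, SE 0.11, adjusted p = 0.000241, limma with Benjamini-Hochberg). The most abundant gene of that list, the HB8 hit Cg4g004280, was not called, with means of 104 FPKM in red and 100 FPKM in white (log2 fold change 0.05, SE 0.10, adjusted p = 0.717, limma with Benjamini-Hochberg). Hits to the leaf polarity partners AS1 and AS2 split. The AS2 hit Cg2g036660 had 2.82, 3.06 and 2.39 FPKM in red, against 0, 0.15 and 0 FPKM in white (log2 fold change 4.39, SE 0.50, adjusted p = 0.000666, limma with Benjamini-Hochberg). It passed the filter through red only, and its log2 fold change was 6.77 with a pseudocount of 0.01 and 1.84 with a pseudocount of 1. In contrast, the AS1 hit Cg6g019800 was lower in red (log2 fold change -0.93, SE 0.13, adjusted p = 0.00129, limma with Benjamini-Hochberg). Another AS1 hit, Cg6g004680, was not called (log2 fold change -0.29, SE 0.32, adjusted p = 0.480, limma with Benjamini-Hochberg). The PHABULOSA hit, the AS2 hit and the AS1 hit Cg6g019800 stayed called whichever library was left out. As to numbers, leaving out red replicate 1 gave 3 higher calls in place of 8. Leaving out red replicate 2 or white replicate 3 gave 4. Lower calls numbered 1 in place of 3 when red replicate 1 or 3, or white replicate 1 or 2, was left out. Those fits also had fewer libraries, and their share of all expressed genes called is not given.

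AP2-type genes, some of which repress AG in Arabidopsis, split as well. The APETALA2 hit Cg1g005630 had 59.8, 66.1 and 42.7 FPKM in red, against 23.4, 32.4 and 24.2 FPKM in white. Its red libraries were all higher (log2 fold change 1.07, SE 0.19, adjusted p = 0.00422, limma with Benjamini-Hochberg), and the call was lost without red replicate 1 or 2 (adjusted p 0.0210 and 0.0154) or white replicate 1 or 3 (0.0174 and 0.0181). The TOE2 hit Cg6g002840 was listed at 0 in all red libraries, against 2.09, 1.09 and 0.38 FPKM in white. It passed the filter through white only. Its adjusted p of 0.00838 (limma with Benjamini-Hochberg) became 0.0225, 0.0193 and 0.0165 without red replicates 1, 2 and 3 and 0.0315 without white replicate 2, and without white replicate 1 the gene fell under the filter and was not tested. In the carpel and fruit list the REPLUMLESS hit Cg6g005590, whose match helps form the ridge between the valves of the Arabidopsis seed pod, had 2.75, 3.92 and 3.07 FPKM in red, against 6.79, 6.16 and 5.34 FPKM in white. It was lower in red (log2 fold change -0.90, SE 0.18, adjusted p = 0.00712, limma with Benjamini-Hochberg), a call lost without red replicate 1 or 3 (0.0280 and 0.0200) or any of white replicates 1, 2 and 3 (0.0281, 0.0282 and 0.0143). The SPATULA hit Cg1g005520, a carpel margin gene in Arabidopsis, had 40.3, 58.7 and 33.3 FPKM in red, against 24.6, 27.4 and 25.8 FPKM in white, and was not called (log2 fold change 0.72, SE 0.20, adjusted p = 0.0211, limma with Benjamini-Hochberg).

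The 28 genes that the letters SBP brought in were 9 PsbP photosystem proteins, 7 S-ribonuclease binding proteins, 6 oxysterol binding proteins and 6 spindle pole body proteins. They were expressed in 24 cases (85.7%, against 47.0% of all genes). Of these 24, 4 were called higher (16.7%) and 4 lower (16.7%) in red, where 13.4% of all expressed genes were higher and 14.1% lower. Oxysterol binding proteins, which move sterols and other lipids between membranes, held 4 of the 8 calls among 5 expressed genes. Cg4g021220 had 3.98, 4.15 and 4.56 FPKM in red, against 0.22, 0 and 0.10 FPKM in white. White was close to 0, and the log2 fold change was 4.54 (SE 0.47, adjusted p = 0.000451, limma with Benjamini-Hochberg). The gene passed the filter through red only, and the size depended on the pseudocount, with log2 fold changes of 2.24 to 6.06 over the 15 alternatives. Cg7g018120 went the other way, at 10.4, 11.9 and 11.4 FPKM in red, against 22.5, 24.7 and 24.7 FPKM in white (log2 fold change -1.08, SE 0.10, adjusted p = 0.000243, limma with Benjamini-Hochberg). Both were called under all 15 alternatives.

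The 6 other calls among these genes were each lost without at least 1 library. The oxysterol binding hits Cg1g009060 and Cg3g015990 averaged 9.84 ± 0.59 and 44.3 ± 6.73 FPKM in red, against 18.5 ± 3.38 and 75.4 ± 6.06 FPKM in white (SD, n = 3). Cg1g009060 (adjusted p = 0.00295, limma with Benjamini-Hochberg) reached 0.0115, 0.0117 and 0.0101 without red replicates 1, 2 and 3 and 0.0143 without white replicate 2. For Cg3g015990 (adjusted p = 0.00243, limma with Benjamini-Hochberg) the values were 0.0137 without red replicate 1, 0.0103 without white replicate 1 and 0.0113 without white replicate 2. The S-ribonuclease binding genes Cg7g019090 and Cg5g007010 averaged 52.0 ± 2.20 and 25.3 ± 2.54 FPKM in red, against 75.2 ± 4.0 and 15.5 ± 2.96 FPKM in white (SD, n = 3). Cg7g019090 was lower (adjusted p = 0.00158, limma with Benjamini-Hochberg, and 0.0102 without red replicate 1). Cg5g007010 was higher (adjusted p = 0.00876, limma with Benjamini-Hochberg), with 0.0350, 0.0330 and 0.0127 without red replicates 1, 2 and 3 and 0.0268 and 0.0200 without white replicates 1 and 3. The PsbP gene Cg2g031430 averaged 8.13 ± 0.82 FPKM in red, against 3.27 ± 0.84 FPKM in white (SD, n = 3, adjusted p = 0.00237, limma with Benjamini-Hochberg), and reached 0.0113 and 0.0112 without red replicates 1 and 2. The spindle pole body gene Cg2g014340 averaged 6.50 ± 1.03 FPKM in red, against 3.13 ± 0.75 FPKM in white (SD, n = 3, adjusted p = 0.00659, limma with Benjamini-Hochberg). It reached 0.0207, 0.0253 and 0.0143 without red replicates 1, 2 and 3 and 0.0239 and 0.0244 without white replicates 2 and 3.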

How the data were processed

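The authors extracted RNA from ripe pulp, made poly-A libraries with the NEBNext Ultra RNA kit, trimmed reads with Trimmomatic and mapped them to the C. maxima genome with STAR 2.7.1a. The deposited values used here were FPKM per gene and library, which the authors made with RSEM 1.3.1 and rounded to 2 decimals. From the same table, the authors' mean normalized count over the 6 libraries (a signal made with featureCounts 2.0.1 and DESeq2) was read only beside FPKM at or near 0. Columns of the authors' own comparison, with fold changes and p-values, were not used. All columns of single libraries were mapped, so 0 were left out. The paper reports the clean bases per library, but these were not used, so depth was not set beside each FPKM. FPKM gave no counts to test, so log2(FPKM + 0.1) was tested with limma 3.58.1 (R 4.3.3, cultivar as the only term, empirical Bayes with trend) on the 14158 genes whose average in either cultivar reached 1 FPKM, adjusted by Benjamini-Hochberg over all of them. Calls used an adjusted p of at most 0.01, alone or together with a change of 2 or more in size on the log2 scale, and a fold on this scale understates changes of low genes. On simulated data for this comparison (14158 genes), the adjusted p alone called 39% of genes changed by 1 on the log2 scale. It called 86% of those changed by 3, with 1 unchanged gene. With the fold threshold as well, the shares were 0% and 86%. There 100 genes of each size were changed, far fewer than the 27.5% of genes called in the data, so these shares may not hold for the data. Alternatives were other pseudocounts, filters and scalings, no trend, a replicate block and leaving out each library. The members and lists were chosen with earlier results of these data known. Named genes were the called members, the 3 most abundant of each family, expressed members of flower, ovule and fruit lineages, and those nearest the filter. The SVP, AGL87 and AGL29 hits, the SPL9 copy without a call, the genes with neighbouring identifiers and the genes of the network lists were named after their values were seen. Repeats were mixes of fruits, so p-values measure the spread between such mixes. Genomic positions and sequences were not analysed here.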

Additional observations from a re-analysis of the deposited data

How the results depend on the processing

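Of 703 results for 47 named genes under 15 alternatives, 589 kept their side of the threshold and direction, 105 lost the call, 4 gained it and 5 changed sign. Without white replicate 1, the hits to SEEDSTICK (Cg5g025130) and TOE2 (Cg6g002840) fell under the filter and gave no value. The changes of sign were the AGL6 hit Cg5g042960 with median scaling (-0.0008), without red replicate 2 (-0.0526) and without white replicate 1 (-0.0277), and the SPL9 hit Cg6g012520 without red replicate 2 (-0.0849) and white replicate 2 (-0.31), neither called in any fit. Leaving out single libraries gave -0.0526 to 0.0891 for Cg5g042960 and -0.31 to 0.4844 for Cg6g012520. Of the MADS-box, SPL and YABBY genes, 2 were higher past both thresholds, against 1 with a pseudocount of 0.5, 0 with a pseudocount of 1, 1 with quantile normalization, 1 with median scaling and 1 to 2 when single libraries were left out. The 1 lower became 0 with pseudocounts of 0.5 and 1, and 0 to 1 without single libraries. At the adjusted p alone, 8 higher became 3 to 8 and 5 lower became 3 to 5 without single libraries. In the network lists, the 1 gene higher past both thresholds became 0 with a pseudocount of 1 and stayed 1 to 1 without single libraries. The 1 lower became 0 with pseudocounts of 0.5 and 1 and with quantile normalization, and 0 to 1 without single libraries. At the adjusted p alone, 8 higher became 3 to 8 and 3 lower became 1 to 2 without single libraries. A larger pseudocount shrinks the fold of low genes by construction, and the cause of the other shifts was not tested. Fits without a library or with a replicate block leave less information on the spread between libraries. The share of all expressed genes called in them is not given, so a fall in counts cannot be tied to particular libraries or genes. The YAB5 hit Cg4g007130 was called in 3 of the 15 alternatives, with a pseudocount of 0.5 or 1 and without white replicate 1. The AP3 hit Cg4g018800 was called in 1, median scaling. Same-numbered libraries did not deviate together across genes (r of 0.0004, 0.0309 and -0.0446), and differently numbered ones had r of -0.0649 to 0.0616. No pairing by number was seen, though a pairing that touches few genes would not show in these values. With a replicate block, MADS-box, SPL and YABBY genes gave 5 higher and 3 lower at the adjusted p and 1 higher and 0 lower past both thresholds, and the network lists 6 higher and 1 lower, and 1 higher and 0 lower past both thresholds. Scaling moved the median of all genes by less than 0.1 on the log2 scale. Depth was not set beside each FPKM, and differences of genes near 0 are the least certain.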
